A study of Mus musculus with 12 samples.

Results

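The genes described here are 38 markers of the liver cells other than hepatocytes, chosen by gene symbol from the 21705 genes of the deposited table. They fall into 4 classes: 11 markers of sinusoidal endothelial cells, 10 of Kupffer cells, 12 of hepatic stellate cells and related matrix-producing cells, and 5 of bile duct cells. Both groups were livers of C57BL/6J female mice of 10 to 12 weeks, taken on day 7 after dosing and after a fast of 18 h. The saline group (6 livers) received saline. The LNA29 group (6 livers) received inhibitors made of locked nucleic acid, 1 against miR-29a and 1 against miR-29b/c, each dosed at 20 mg/kg. Polyadenylated RNA of whole liver was sequenced, so each value sums over all cell types of the organ. The values are RSEM read estimates that the authors divided by each liver's upper quartile over detected genes and multiplied by 1000, with a value of 1 for a gene without reads.

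Sinusoidal endothelial cells line the blood channels of the liver and clear macromolecules from plasma, and Kupffer cells are the resident macrophages held inside those channels. Stellate cells store vitamin A and produce extracellular matrix, of which several components are known targets of miR-29, and bile duct cells line the ducts that drain the organ. Because hepatocytes hold most of the RNA of the liver, markers of the other cells report on a small share of a whole-liver library.

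The treatment acts on miRNAs that share a seed, bases 2 to 8, which is why their mature sequences are shown first. RefSeq (GRCm38.p6) lists them as follows, with the seed in capitals.
miR-29a-3p: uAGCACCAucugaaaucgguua
miR-29b-3p: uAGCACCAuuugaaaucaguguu
miR-29c-3p: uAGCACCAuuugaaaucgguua
Two-sided exact permutation tests over every assignment of the livers to the groups were used for single genes, and limma across all genes tested for adjusted p-values. Of the genes reported as miR-29 targets, Sparc, a matrix protein gene, had values between 2120 and 2765 (median 2569) in saline livers and between 5683 and 9547 (median 7039) in LNA29 livers. The groups did not overlap, and the log2 fold change was 1.51 (exact p = 0.00216, the smallest that 6 against 6 livers can give; limma adjusted p = 4.62e-05). Col3a1, a fibrillar collagen gene, was between 158 and 317 (median 218) in saline livers and between 341 and 938 (median 663) in LNA29 livers. It also did not overlap between the groups, with a log2 fold change of 1.48 (exact p = 0.00216; limma adjusted p = 0.0438). Col1a1, the gene of the other major fibrillar collagen, was between 93.8 and 333 (median 231) in saline livers and between 146 and 698 (median 393) in LNA29 livers. Of the 6 LNA29 livers, 5 were above the saline median, and the log2 fold change of 0.70 did not pass the test (exact p = 0.123). By RT-qPCR in a larger set of mice, the paper reported a significant increase of Col1a1 in liver.

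None of the 38 markers was called in limma. Of all 12486 genes tested, 0.0721% were called higher and 0.0881% lower in LNA29 livers at an adjusted p under 0.05, and among the markers the smallest adjusted p was 0.391. At an unadjusted limma p under 0.05, 1 marker was higher, against 1.95% of all genes tested, and 1 was lower, against 5.97%. The groups overlapped for all 38 markers, while 0.272% of all genes tested were higher and 0.713% lower in LNA29 livers without overlap. By sign alone, 27 markers were lower in LNA29 livers, against 61.4% of all genes tested, and 11 were higher, against 38.6%. The median log2 fold change of the 38 markers was -0.13, beside -0.09 over all genes tested. In whole liver, fewer cells of a type and less RNA per cell cannot be told apart.

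**Figure D1:**
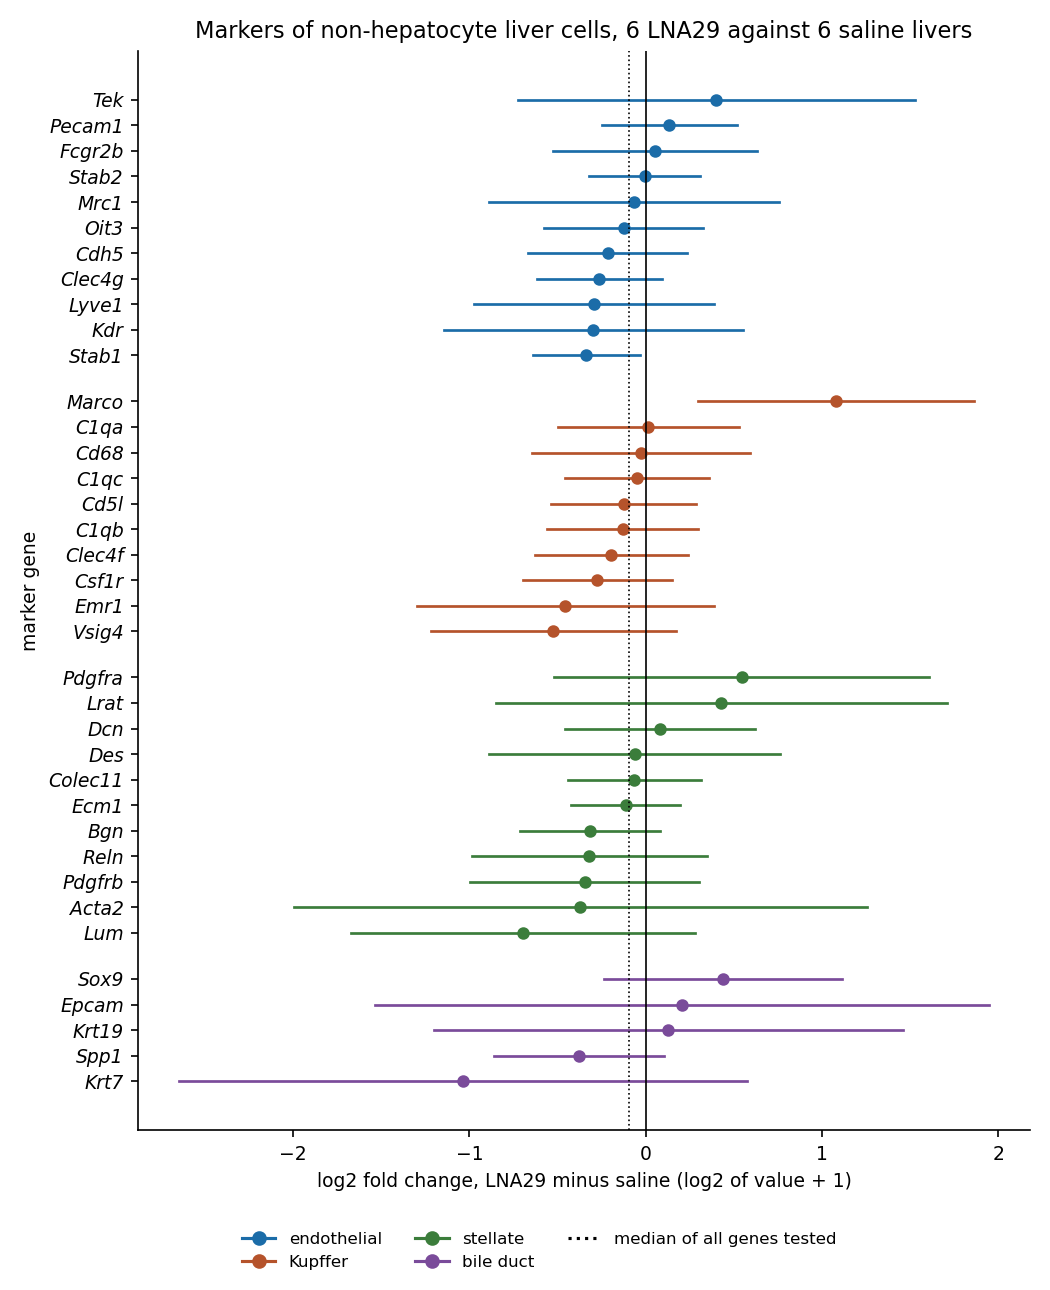
Log2 fold change of LNA29 over saline livers (points, on the scale of log2 of value + 1) with 95% limma intervals (bars) for 37 markers in 4 cell classes, and the median of all genes tested (dotted line, -0.09). The intervals of Marco and Stab1 exclude 0 and those of the others include it; Rgs5 is left out for its low reads.

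Absence of a call is not a sign of equal levels. The 95% interval of the log2 fold change lay within 1 in either direction for 24 of the 38 markers, and within 0.5 for only 4 of them. When 1 liver was left out, the log2 fold change moved by over 1.5 times for 31 of the 37 markers above the read floor, and its sign turned for 12. The exceptions were Stab1, Clec4g, Marco, Bgn, Sox9 and Spp1. Depth differed between the livers: the libraries held between 7696087 and 19062449 reads on genes, and a single read stood for a value of 9.80 to 24.4. A marker with a value near 100 therefore rested on about 10 reads or fewer in each liver. Of the markers, 7 had a mean under 100 over the 12 livers, and 2 (Krt7 and Epcam) had a liver without any read. For such genes the size of the log2 fold change is set in part by the 1 that stands for no reads.

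Levels can be compared between genes only per transcript length. On that scale, in value per 1000 bases and as a mean over the 12 livers, the highest of the 38 markers were Bgn at 10233 and Ecm1 at 7929, followed by the complement genes C1qc at 2759, C1qa at 2627 and C1qb at 2237. The median level per length was 967 in the Kupffer class, 138 in the endothelial class, 49.7 in the stellate class and 48.9 in the bile duct class. The lowest was Rgs5, a regulator of G protein signalling known from pericytes, at 8.43. Within the stellate class Bgn stood at 385 times the level per length of Lrat, the enzyme that esterifies retinol for storage.

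**Figure D2:**
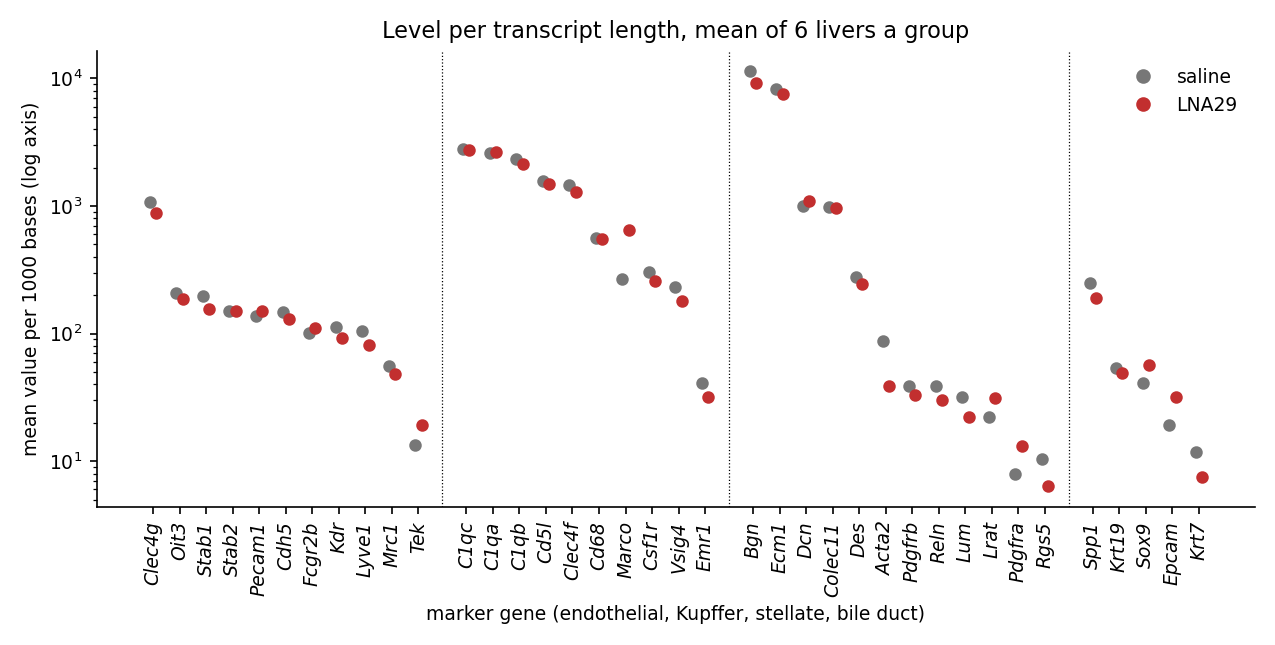
Mean value per 1000 bases of transcript in 6 saline and 6 LNA29 livers (log axis) for the 38 markers, ordered by level within each of the 4 classes. Bgn and Ecm1 stand above all other markers, and the means of both groups lie close together for most genes.

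The endothelial markers include the scavenger receptor genes Stab1 and Stab2. Stab1 (Entrez 192187), which encodes stabilin-1, was between 1450 and 1895 (median 1501) in saline livers and between 982 and 1585 (median 1230) in LNA29 livers. LNA29 replicate 52 was the 1 treated liver inside the saline range, and the other 5 were below the lowest saline liver. The log2 fold change was -0.34 (95% interval -0.64 to -0.03; exact p = 0.0108; limma adjusted p = 0.567). After a shift of all livers to 1 median, which moved the median of all genes tested from -0.09 to -0.05, the exact p of Stab1 was 0.0866 at a log2 fold change of -0.29. Its unadjusted limma p was not under 0.05 in 8 of 22 alternatives. Stab2 (Entrez 192188), which encodes the related stabilin-2, was between 1105 and 1384 (median 1233) in saline and between 1019 and 1513 (median 1238) in LNA29 livers, a log2 fold change of -0.01 with a 95% interval from -0.32 to 0.31. The difference between the 2 genes was not tested.

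Clec4g, a lectin gene of sinusoidal endothelium, was the endothelial marker with the highest level per length. Its values ran from 1150 to 1930 (median 1519) in saline livers and from 982 to 1439 (median 1340) in LNA29 livers. All 6 LNA29 livers lay below the saline median, and the ranges overlapped; the log2 fold change was -0.26 (exact p = 0.123). Over the 10 endothelial markers other than Stab1 the log2 fold change ran from -0.30 (Kdr, a receptor of vascular endothelial growth factor) to 0.40 (Tek, the angiopoietin receptor, read at a median of 6 reads), and exact p-values from 0.123 to 0.968. With 1 liver left out, Kdr ran from -0.55 to -0.03 and Tek from 0.12 to 0.78. The others include the hyaluronan receptor gene Lyve1, the mannose receptor gene Mrc1, the Fc receptor gene Fcgr2b and the junction genes Pecam1 and Cdh5. Of the 11 markers 8 were lower and 3 higher, with a median of -0.12.

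Among the Kupffer cell markers, Marco stood apart in size. Marco (Entrez 17167), a class A scavenger receptor of macrophages that binds bacteria and particles, had values from 344 to 984 (median 429) in saline livers and from 446 to 3425 (median 953) in LNA29 livers. All 6 LNA29 livers were above the saline median. Saline replicate 45, at 984, was high for its group, and LNA29 replicate 54, at 3425 or 250 reads, was far above every other liver. The log2 fold change was 1.08, or 2.11-fold, with a 95% interval from 1.23-fold to 3.63-fold (exact p = 0.0368; limma adjusted p = 0.391). Without LNA29 replicate 54 the log2 fold change of Marco was 0.73 and the exact p 0.0541. The exact p of Marco was also over 0.05 without saline replicate 43 (0.0671), saline replicate 49 (0.0649) or saline replicate 53 (0.0628), at log2 fold changes between 0.98 and 1.01.

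The other 9 Kupffer cell markers ran from -0.52 (Vsig4, a complement receptor) to 0.02 (C1qa), with exact p-values from 0.173 to 0.944. Clec4f, the lectin gene most particular to Kupffer cells in mice, ran from 2484 to 4912 (median 3574) in saline livers and from 2245 to 4411 (median 2960) in LNA29 livers. Its log2 fold change was -0.19 (exact p = 0.413), and both groups spanned nearly the same range. C1qc, 1 of the 3 chains of complement C1q, ran from 2469 to 4316 (median 3219) in saline and from 2268 to 5113 (median 3143) in LNA29 livers, a log2 fold change of -0.05 (exact p = 0.827). Cd5l, Csf1r, Cd68 and Emr1, the gene of the F4/80 antigen, lay within the same bounds. Over these 9 markers, without Marco, the mean log2 deviation from the mean of the 12 livers was 0.32 in LNA29 replicate 54, the liver highest in Marco. It was 0.36 in LNA29 replicate 44 and 0.35 in saline replicate 53, and lowest at -0.50 in LNA29 replicate 52. Whether the amount of Kupffer cell RNA plays a part in the Marco values was not tested.

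**Figure D3:**
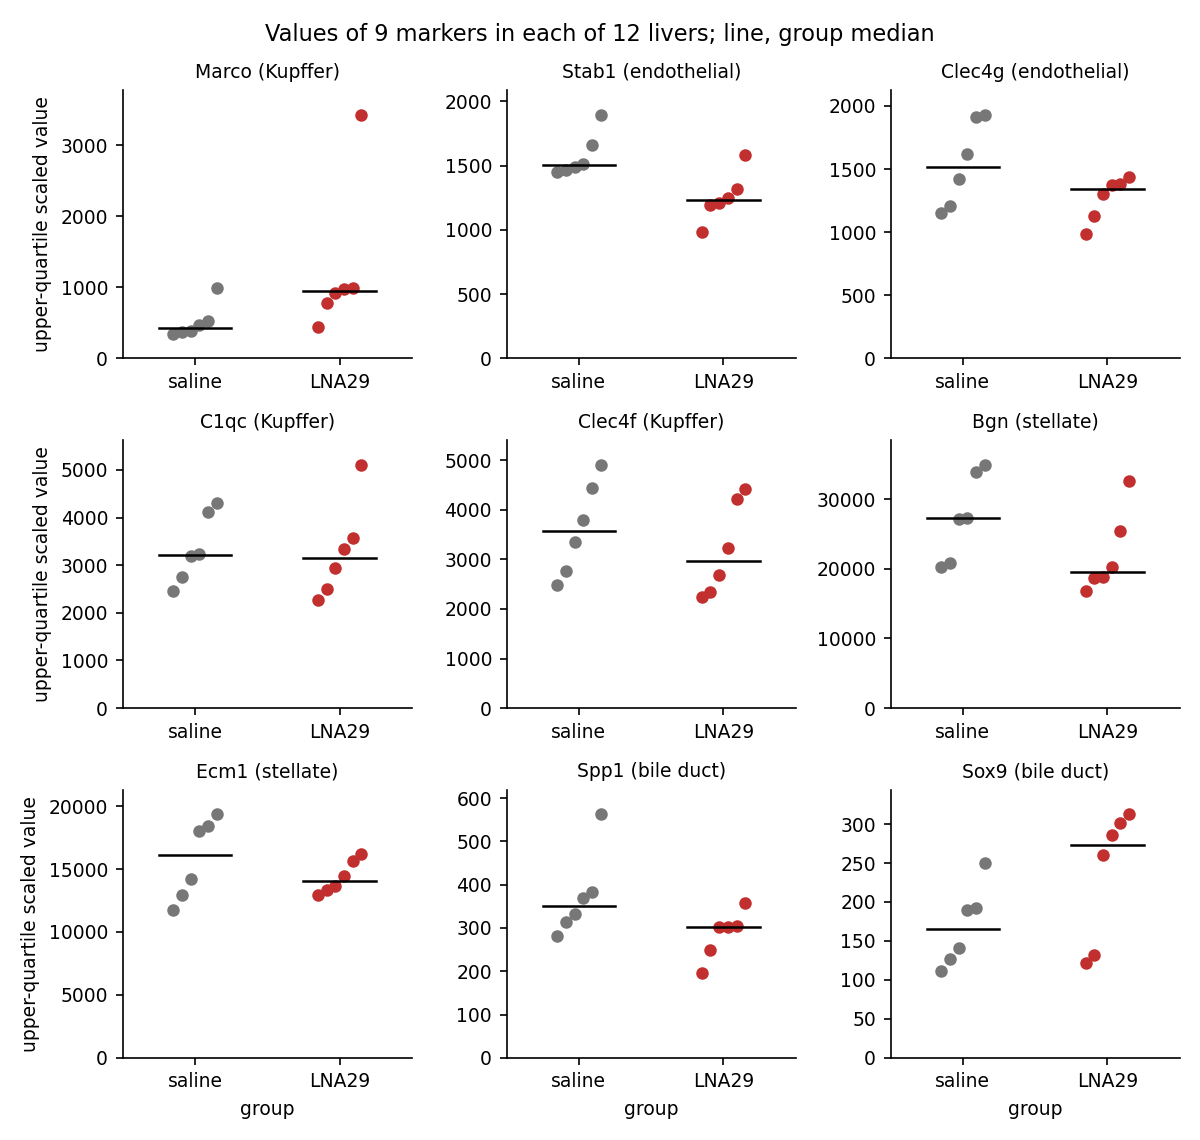
Upper-quartile scaled values of Marco, Stab1 and other markers with high levels in their class in each of 6 saline (grey) and 6 LNA29 (red) livers, with the group median (line). Marco has 1 liver at 3425, and in Stab1 5 of 6 LNA29 livers lie below all saline livers; the ranges of the groups overlap in all the genes shown.

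Among the stellate class markers, the proteoglycan gene Bgn (biglycan) was between 20297 and 34947 (median 27233) in saline livers and between 16804 and 32642 (median 19533) in LNA29 livers. LNA29 replicate 48 was the treated liver above the saline median, and the log2 fold change was -0.32 (95% interval -0.71 to 0.08; exact p = 0.134). Without that liver it was -0.44 (exact p = 0.0411), and with 1 of the other livers left out it reached -0.24. Ecm1, a matrix protein gene, was between 11710 and 19351 (median 16121) in saline and between 12964 and 16164 (median 14039) in LNA29 livers, with the LNA29 livers inside the saline range and a log2 fold change of -0.11 (exact p = 0.407). Bgn and Ecm1 together made up between 85.2% and 91.5% of the summed value of the 12 stellate markers in each liver. That sum therefore mainly follows these genes and not the defining markers Lrat, Reln and Colec11. Which cells gave the reads of Bgn and Ecm1 cannot be told in whole liver and was not tested.

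The other stellate markers gave no common direction. Reln, a secreted glycoprotein gene, was lower than the saline median in all 6 LNA29 livers (170 to 450, median 402, against 193 to 750, median 466), with overlap and a log2 fold change of -0.32 (exact p = 0.381; -0.54 to -0.13 with 1 liver left out). Lrat was higher by sign, at 0.43, but ranged from 18.9 to 300 within the LNA29 livers alone (exact p = 0.556), and with 1 liver left out its log2 fold change ran from 0.12 to 0.97. The receptor genes of platelet-derived growth factor had opposite signs, 0.55 for Pdgfra and -0.35 for Pdgfrb (exact p = 0.294 and 0.258). Both signs held with 1 liver left out, while the size and the exact p depended on single livers. Pdgfra then ran from 0.39 to 0.93 (exact p = 0.0281 for the latter, without LNA29 replicate 48). Pdgfrb ran from -0.55 (exact p = 0.0390, without LNA29 replicate 54) to -0.19. The small proteoglycan genes Dcn and Lum also differed in sign, at 0.08 and -0.70 (exact p = 0.792 and 0.113), and with 1 liver left out Lum ran from -0.98 (exact p = 0.00866, without LNA29 replicate 44) to -0.43. Colec11 was at -0.06 (exact p = 0.714). For Rgs5, with a median of at most 3 reads in both groups, no fold change is given. Sparc and Col3a1 were thus higher in LNA29 livers without overlap while none of the 12 stellate markers was called, with a class median of -0.17 (9 lower, 3 higher), or -0.11 without Rgs5.

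The contractile genes Acta2 (smooth muscle actin) and Des (desmin) varied with single livers. Acta2 was at 825 in saline replicate 47 and at 245 in LNA29 replicate 48, and between 17.9 and 95.2 in the other livers. Des was highest in the same livers, at 1895 and 1302. The smooth muscle genes Tagln, at 1228, and Myh11, at 965, were likewise highest in saline replicate 47, and in LNA29 replicate 48 they were at 660 and 245. The log2 fold changes of Acta2 and Des were -0.37 (exact p = 0.703) and -0.06 (exact p = 0.900). Reads of Acta2 can be shared with those of closely similar actin genes, so its level is uncertain. Without saline replicate 47 the log2 fold change of Acta2 was 0.33, so its sign rests on that liver. The part of smooth muscle of vessels in these values was not tested.

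The bile duct class had the lowest summed value of the 4 classes, with a median of 698 in saline and 719 in LNA29 livers. The single marker with the fewest reads was in the stellate class, Rgs5 at a median of 1 read over the 12 livers. Spp1 (osteopontin), the most abundant of the 5, was between 281 and 563 (median 352) in saline livers and between 195 and 358 (median 302) in LNA29 livers. LNA29 replicate 48 was the treated liver above the saline median. Its log2 fold change was -0.38 (95% interval -0.86 to 0.10; exact p = 0.0693), and with 1 liver left out it ran from -0.45 (exact p = 0.0281, without saline replicate 47) to -0.25. Sox9, a transcription factor gene of ductal cells, was between 111 and 250 (median 165) in saline and between 122 and 313 (median 273) in LNA29 livers, with 4 of 6 LNA29 livers above the saline median and a log2 fold change of 0.44 (exact p = 0.182). The keratin genes Krt19 and Krt7 and the adhesion gene Epcam had medians of 6, 2 and 3 reads over the 12 livers, and the 95% intervals of their log2 fold changes reached from -1.20 to 1.46, from -2.65 to 0.58 and from -1.53 to 1.95. With 1 liver left out, Epcam ran from -0.07 to 1.08, the latter without LNA29 replicate 52, where it had no reads (exact p = 0.0260). The class median of 0.13 changed sign with the livers included, and without saline replicate 49 it was -0.37.

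**Figure D4:**
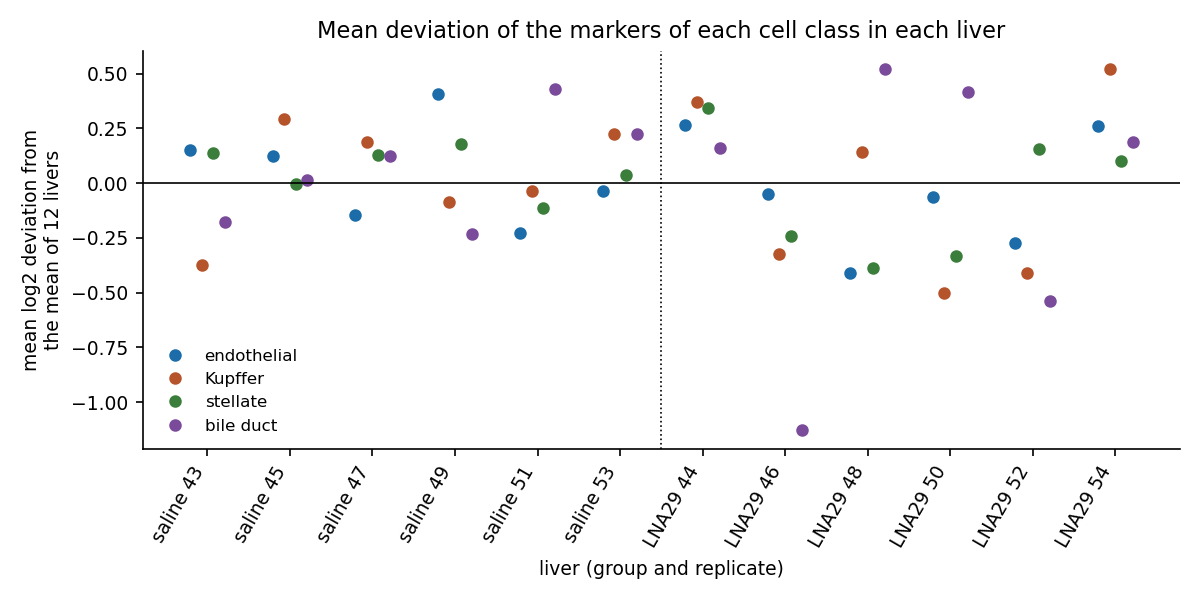
Mean log2 deviation of the markers of each of the 4 classes from their mean over the 12 livers, for each saline and LNA29 liver (dotted line between the groups). Endothelial, Kupffer (with Marco) and stellate means lie between -0.50 and 0.52, with livers of both groups on both sides of 0, and the lowest bile duct mean is -1.13 in LNA29 replicate 46.

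Of the 38 markers, 25 had the larger SD of log2 values in the LNA29 group, beside 52.5% of all genes tested, and this difference was not tested. The mean deviation of the 38 markers ran from -0.05 to 0.12 in saline livers and from -0.32 to 0.30 in LNA29 livers, while the median log2 value of all genes tested ran from 8.05 to 8.46 in saline and from 8.05 to 8.35 in LNA29 livers. Depth ran from 7696087 to 15079237 reads in LNA29 and from 8217212 to 19062449 in saline libraries, and the part of depth in this spread was not tested.

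Transcript length marked some libraries. The Spearman rho, across the 12217 genes tested that had a length, between the deviation of a gene in a liver and its transcript length was highest in saline replicate 49 (0.50) and lowest in saline replicate 47 (-0.30) and LNA29 replicate 48 (-0.24); genes are not independent replicates. The 38 markers, of 1040 to 11699 bases, had a rho of 0.46, -0.37 and -0.51 in these livers. The 13 markers of at least 4000 bases had a median log2 deviation of 0.76 in saline replicate 49 and of -0.47 in LNA29 replicate 48, while the 12 markers under 2000 bases were at -0.24 and 0.27. Kdr, of 5924 bases, was at 1250 in saline replicate 49 and at 189 in LNA29 replicate 48. With the length trend of each liver as a covariate, none of the markers was called in limma, and the log2 fold changes of Marco and Stab1 were 1.07 and -0.34.

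**Figure D5:**
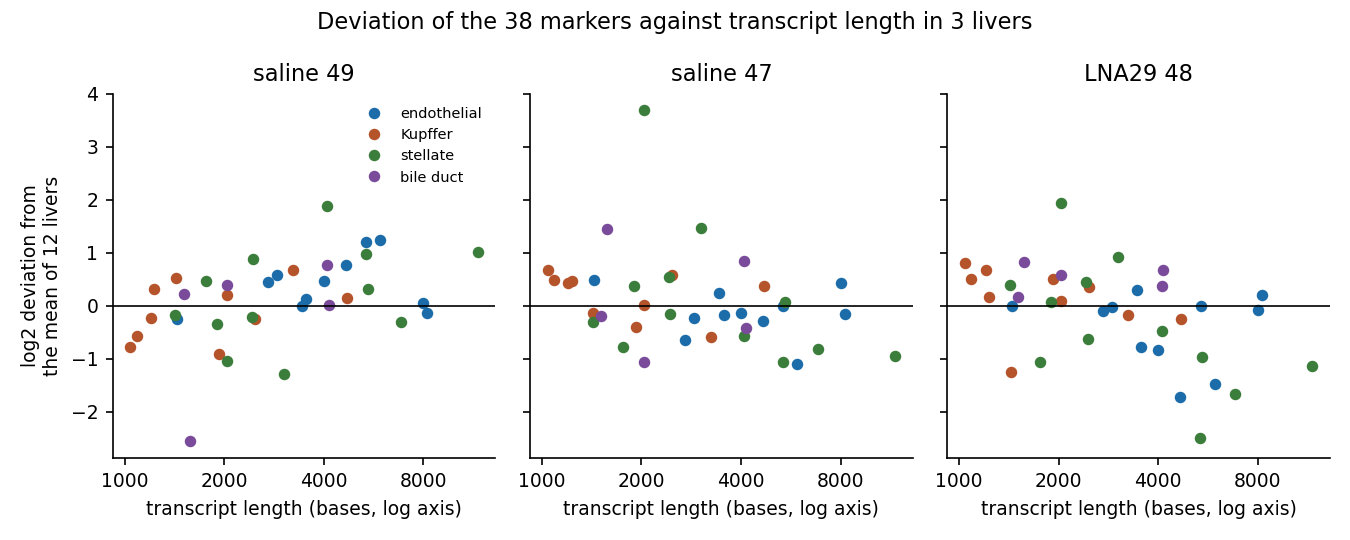
Log2 deviation of each of the 38 markers from its mean over the 12 livers against transcript length (bases, log axis) in saline replicate 49, saline replicate 47 and LNA29 replicate 48, coloured by class. Longer markers are higher in the first liver (rho 0.46) and lower in the other livers (rho -0.37 and -0.51).

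Matches to the miR-29 seed were searched in 1 3′ UTR per gene, the longest that GENCODE M21 (GRCm38) annotates. A match was the run GGTGCT with a T before it or an A after it, on the transcript strand. All 38 markers had a 3′ UTR, and 4 of them (10.5%) held a match. The share was 18.9% of the 12125 genes tested with a 3′ UTR, and 16.7% of all 19609 genes with one. The median 3′ UTR length was 762.5 bases for the markers and 1142 bases for the genes tested. The part of this length in the shares was not tested. The sites of 3 of the markers with a match are shown with the match in capitals, since the treatment targets miRNAs that carry this seed. A match describes the letters only and is not a shown binding site. All lie in the 3′ UTR part of the last exon.
Pdgfra, chr5:75196365-75196371, plus strand: tgagaccacaaTGGTGCTgttgaatgaag
Pdgfra, chr5:75196526-75196532, plus strand: tatgaactgccTGGTGCTcttgaatagtc
Stab2, chr10:86841355-86841361, minus strand: caccttccagaTGGTGCTtggcctgttct
Krt7, chr15:101429476-101429483, plus strand: agtcacccaggTGGTGCTAgttttgaaggc
The other marker with a match was Pdgfrb. Their log2 fold changes were 0.55 for Pdgfra, -0.01 for Stab2, -1.03 for Krt7 at a median of 2 reads, and -0.35 for Pdgfrb, so 1 of the 4 was higher in LNA29 livers, beside 45.2% of the 2294 tested genes with a match, and none passed the exact test. The median log2 fold change of tested genes was -0.04 with a match and -0.10 without. Sparc and Col3a1 held 2 matches each and Col1a1 held 3. Neither Marco nor Stab1 held a match, which says only that these letters are not in that 3′ UTR.

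Further markers of the same cells were read from 4 longer lists. Of 25 further endothelial genes, 16 were lower and 9 higher (median -0.12), and none was called. Dnase1l3, a secreted nuclease gene, was between 3968 and 7121 (median 4949) in saline and between 3390 and 4575 (median 3642) in LNA29 livers (log2 fold change -0.43; exact p = 0.0195; limma adjusted p = 0.432). Nrp1, a co-receptor of vascular endothelial growth factor, was between 571 and 1460 (median 916) in saline and between 304 and 975 (median 530) in LNA29 livers (log2 fold change -0.75; exact p = 0.0325; limma adjusted p = 0.427). All 6 LNA29 livers for Dnase1l3 and 5 of 6 for Nrp1 were below the saline median, and the groups overlapped for both. Plvap, the most abundant of the list, was at -0.12 (exact p = 0.405).

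Of 19 further Kupffer cell and macrophage genes, 13 were lower and 6 higher (median -0.07), and none was called. Lyz2, the lysozyme gene of myeloid cells, was between 828 and 1284 (median 1066) in saline and between 1094 and 2795 (median 1576) in LNA29 livers (log2 fold change 0.59; exact p = 0.0195; limma adjusted p = 0.401). Its highest value, like that of Marco, was in LNA29 replicate 54. Folr2, the folate receptor gene of resident macrophages, had the opposite sign, with 250 to 456 (median 314) in saline and 125 to 268 (median 243) in LNA29 livers (log2 fold change -0.61; exact p = 0.0108; limma adjusted p = 0.535). Laptm5, the most abundant of the list, was at -0.31 (exact p = 0.0736).

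Of 21 further stellate and fibroblast genes tested, 16 were lower and 5 higher (median -0.08), and none was called. Ngfr, a neurotrophin receptor gene of stellate cells, was between 158 and 374 (median 223) in saline and between 94.3 and 195 (median 143) in LNA29 livers (log2 fold change -0.78; exact p = 0.0195; limma adjusted p = 0.487), at a median of 11 reads. Of 16 further bile duct genes 10 could be tested, with 6 lower and 4 higher (median -0.18, or -0.09 without genes at the floor of 3 reads), and 12 were at or under 3 reads in both groups.

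Markers of other cells showed no call either. Of 16 hepatocyte markers 9 were higher and 7 lower (median 0.05), and these 16 genes held between 43.1% of all values, in saline replicate 49, and 55.4%. Albumin, the most abundant gene, took 35.7% of the values in that liver and between 43.6% and 46.9% in the other livers. Red cell genes, with Hba-a2 as the most abundant, had a median of 0.26 over 4 tested, and of 0.04 without the gene at the floor of 3 reads. Lymphocyte and NK cell genes had a median of -0.32 over 11 tested, and 9 of 15 were at or under 3 reads in both groups. Defining markers of the remaining cells were mostly at or under that floor: 8 of 9 neutrophil, 9 of 10 monocyte and dendritic cell, 5 of 5 mesothelial, and 7 of 9 pancreas and fat genes. The most abundant of these lists were Cd79a, Csf3r, Plac8, Msln and Fabp4, and no gene in them passed an unadjusted limma p of 0.05.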

How the data were processed

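RNA of 6 saline and 6 LNA29 livers was sequenced as single reads. The authors mapped them with MapSplice2 and estimated reads per gene with RSEM (mm9 in the submitters' processing notes; versions not given in the sources used here). The deposited signal values are these reads divided by the upper quartile and multiplied by 1000. The authors' 3 columns of group means and fold changes were not used, nor were their p-values. Depth was read from the worth of 1 read, of which between 92.0% and 93.7% of values in a liver were whole multiples (within 0.02). limma 3.58.1 (R 4.3.3) with a trend was fitted on log2(value + 1) over the 12486 genes whose mean reached 10, and p-values were adjusted by Benjamini-Hochberg (threshold 0.05). Single genes had two-sided exact permutation tests (Python 3.11.15, numpy 2.4.6, pandas 2.3.3). Transcript lengths and 3′ UTRs came from GENCODE M21, matched by Entrez identifier. Values are given in full for markers with an unadjusted limma p under 0.05 and for the 2 markers of each class with the highest mean; of the further lists, genes with such a p and the most abundant gene are named for most lists, not all. Other genes named were chosen after their values were seen. Members and lists were chosen with earlier results of these data known. The scripts were tested on simulated data. Alternatives were pseudocounts, filters, scalings, a length covariate, discarding of outlying values, array weights and leaving out each liver.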

Additional observations from a re-analysis of the deposited data

Results flagged for a closer look

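In each group of 6 livers, the highest and the lowest log2 value of each of the 38 markers was compared with the others by its gap relative to the range of the group. Of 76 such groups 4 held a value past the 95% limit of Dixon's comparison, and chance gives about 1 in 20. Cd68 was at 297 in saline replicate 43, where the other saline livers were between 651 and 895. Lrat was at 18.9 in LNA29 replicate 48, beside 132 to 300 in the other LNA29 livers. Acta2 was at 825 in saline replicate 47, beside 30.0 to 95.2 in the other saline livers. Epcam had no reads in LNA29 replicate 52, where it is listed at 1, beside 54.8 to 107 in the other LNA29 livers. The 4 values lie in 4 different livers, and their causes were not tested.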

How the results depend on the processing

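No marker was called higher or lower in limma under any of the 22 alternatives, of which 1, without saline replicate 47 and LNA29 replicate 48, was chosen after seeing the data. The planned edgeR and DESeq2 alternatives were not run. The number of single markers with a p under 0.05, which was 2, was 1 after a shift to a common median, 6 with values beyond 1.5 SD discarded, 4 with array weights and 4 with the length covariate (limma p for these last settings), and between 1 and 5 when a liver was left out. The class medians of the endothelial, Kupffer and stellate markers kept their sign in all 22, between -0.24 and -0.05, -0.25 and -0.03, and -0.29 and -0.07. That of the bile duct markers kept it in 14 of 22, and ran from -0.37 to 0.30 when a liver was left out; the cause was not tested. Scaling to the summed value moved the median of all genes tested from -0.09 to -0.21. The calls over all genes, 9 higher and 11 lower, were 6 and 4 with a common median, 1 and 0 with the summed value, 73 and 144 with values discarded, 18 and 40 with array weights, 37 and 87 with the length covariate, and 3 and 2 without a filter; without LNA29 replicate 50, 52 or 54 or saline replicate 43 they were 1 and 0. Over the alternatives the p of Marco ran from 0.00872 to 0.0794 (exact or limma) and that of Stab1 from 0.00216 to 0.0866. Their unadjusted limma p stayed under 0.05 in 22 of 22 alternatives for Marco and in 14 of 22 for Stab1. By the exact p, or the limma p with array weights or the length covariate, values of Clec4g, Pdgfra, Pdgfrb, Lum, Bgn, Epcam and Spp1 crossed to under 0.05 in 17 cases, and those of Marco and Stab1 to over it in 6. By the unadjusted limma p, Vsig4 and Emr1 were also under 0.05 in some alternatives. The sign held in every alternative for 23 of 37 markers. At this depth, differences of markers with few reads were not detectable unless large.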
